A study of Mus musculus with 6 samples.

Results

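Genes of the cells that make and mineralise bone were followed in RNA of the mouse stria vascularis, a layer of the cochlea rich in blood vessels that supplies the endolymph, the fluid around the hair cell tips, with potassium. The list held 10 symbols (Sp7, Runx2, Dlx5, Pth1r, Alpl, Smpd3, Ibsp, Spp1, Dmp1 and Phex), and every probe set whose symbol in the array's annotation was exactly one of them was taken. This gave 14 of the 45037 probe sets that are not controls, for 8 of the 10 genes, among 18193 genes named on the array. The annotation used here names no probe set for Runx2 or Spp1, so neither was analysed here. On this array a transcript is read by 1 or more probe sets, each made of several short probes that lie towards its 3′ end. Of the 14, 11 passed a filter on dim probe sets (a mean signal of at least 46.3), and each of the 8 genes kept at least 1.

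The study compared mice at postnatal day 10, before hearing starts, that were heterozygous for Slc26a4 (3 arrays, replicates 1, 3 and 5) or Slc26a4 knockout (3 arrays, replicates 2, 4 and 6). Slc26a4 encodes pendrin, an anion exchanger whose loss causes deafness. The controls thus carried 1 working copy and not 2, and the strain, the sex and the form of the knockout allele are not given in the sources used here. Each sample was 1 array of stria vascularis RNA, and the labels do not say whether animals were pooled, so the spread behind each p-value is that between samples and may be in part technical. With so few arrays, precision is limited throughout.

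Bone is laid down by osteoblasts, which secrete a matrix of type I collagen and acidic phosphoproteins that is then filled with calcium phosphate, and some of them become buried as osteocytes. Runx2, Dlx5 and Sp7 are the transcription factors of osteoblast formation, and Pth1r is the receptor through which parathyroid hormone and its related peptide act on these cells. Alpl and Smpd3 are enzymes that favour mineral growth, Ibsp and Dmp1 are phosphoproteins of the mineralised matrix, and Phex is a membrane peptidase of osteocytes whose loss causes phosphate wasting. The stria vascularis has no bone of its own, but it borders the spiral ligament, which lies between it and the bony otic capsule.

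The targeted gene was checked first. Slc26a4 signals were 221, 248 and 1006 in heterozygous and 75.5, 106 and 154 in knockout samples, so the groups did not overlap (log2 difference -1.69, SE 0.50, limma adjusted p = 0.371). Leaving out 1 array moved this difference between -2.07 (heterozygous replicate 1) and -1.02 (heterozygous replicate 5, the sample at 1006). Among the stria's own markers, the potassium channel gene Kcnq1 of marginal cells had a mean of 5677 in heterozygous and 5523 in knockout samples, and the melanin enzyme gene Tyr of intermediate cells 5275 and 5234. The intermediate cell markers Pmel (96.8 and 79.7) and Tyrp1 (no signal above 13.1, below the filter) were dim. Differences are given on the scale log2(signal + 16), which understates the change of dim genes, as knockout minus heterozygous.

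Of the 8 mineralisation genes with a tested probe set, 7 were higher in knockout samples and 1, Alpl, was lower, each taken at its brightest probe set. Dlx5, among the 7, passed the filter only through its knockout samples. None of the 8 passed the threshold (limma adjusted p under 0.05), which 0.0037% of the 27022 probe sets tested and 0.00805% of the 12421 genes did, and the members' adjusted p lay between 0.371 and 0.850. At an unadjusted p under 0.05, 4 of the 8 were higher (Dmp1, Phex, Ibsp and Pth1r) and 0 lower, where 3.21% of all genes were higher and 3.23% lower. In these 4 genes the groups did not overlap, with the knockout samples above, which held for 6.07% of all genes (7.04% had them below). Over all genes, 43.1% had a positive difference. The median log2 difference of the 8 was 0.83, beside -0.04 over all genes. In RNA of whole tissue, more cells of a type and more RNA per cell cannot be told apart.

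**Figure D1:**
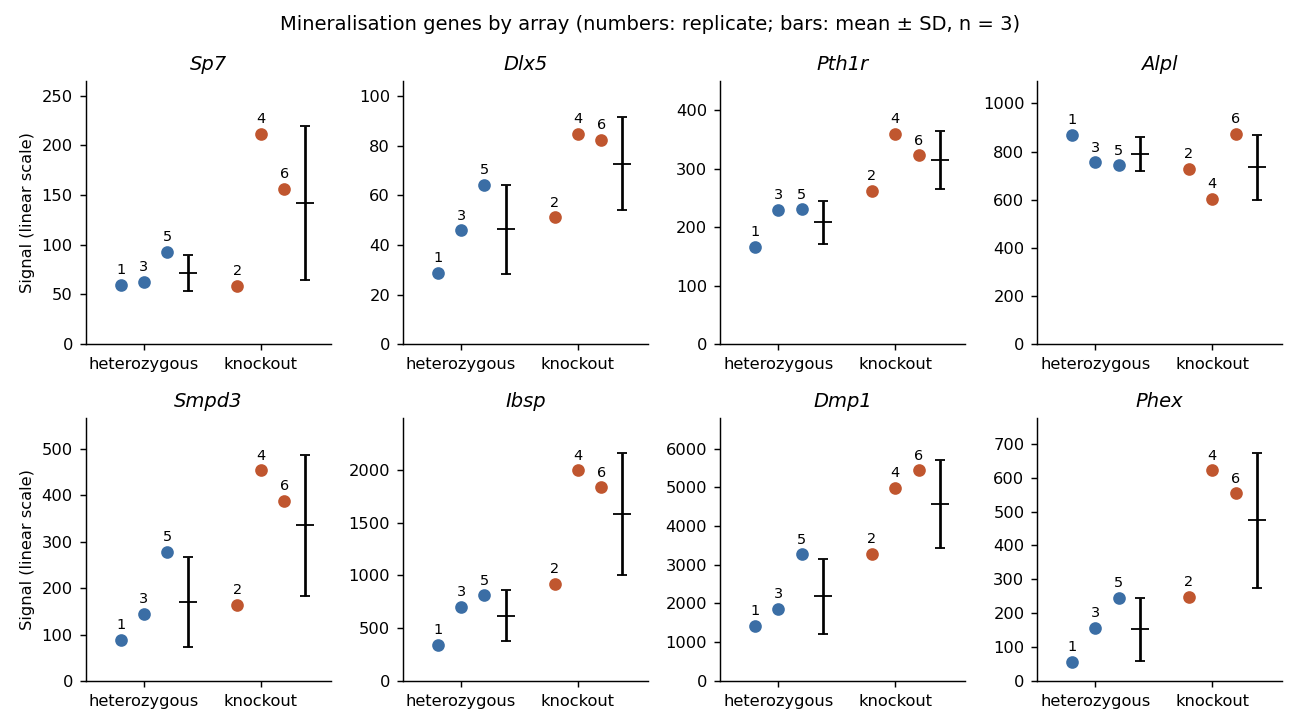
Signal (linear scale, from 0) of the brightest probe set of each of the 8 genes in the 3 heterozygous and 3 knockout samples; numbers are replicates, and the bars beside the points are mean ± SD (n = 3). The knockout points lie above the heterozygous ones in Pth1r, Ibsp, Dmp1 and Phex, knockout replicate 2 is near heterozygous replicate 5 in Dmp1 and Phex, and Alpl shows no such shift.

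Dmp1, the osteocyte phosphoprotein, is measured by 3 probe sets. On the brightest, an _x_at probe set, the signals were 1428, 1862 and 3265 in heterozygous replicates 1, 3 and 5, and 3286, 4991 and 5438 in knockout replicates 2, 4 and 6. The groups were separated here only by the gap between heterozygous replicate 5 and knockout replicate 2, a ratio of 1.01. Means were 2185 ± 960 and 4571 ± 1136 (SD, n = 3 each), which differed by 1.11 ± 0.28 on the log2 scale (SE, limma unadjusted p = 0.00287, adjusted p = 0.371).

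On the other Dmp1 probe sets the differences were larger, and the groups overlapped. On the _s_at probe set the heterozygous samples gave 350, 709 and 1423 and the knockout samples 1081, 2262 and 3823, so that knockout replicate 2 fell below heterozygous replicate 5 (log2 difference 1.55 ± 0.51 SE). On the third the values were 104, 195 and 515 against 223, 741 and 1626, with the same overlap (1.49 ± 0.68 SE). The samples stood in the same order on all 3 within each genotype. The endings _x_at and _s_at mark, by the array maker's convention, probe sets with probes that can match other transcripts, and the dimmest of the 3 has neither.

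Ibsp, integrin-binding sialoprotein of the bone matrix, gave 344, 701 and 811 in heterozygous and 921, 1996 and 1835 in knockout samples on its brighter probe set. Here too the highest heterozygous and lowest knockout samples were replicates 5 and 2, but with a wider gap, a ratio of 1.14. The means of 619 ± 244 and 1584 ± 580 (SD, n = 3 each) differed by 1.34 ± 0.35 on the log2 scale (SE, limma unadjusted p = 0.00366, adjusted p = 0.371). Its other probe set was dim and its groups overlapped, with 57.1, 51.7 and 73.6 against 59.2, 82.3 and 133 (log2 difference 0.44 ± 0.30 SE).

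Phex had the highest log2 difference of the 8 genes. Its signals were 56.9, 156 and 244 in heterozygous and 247, 621 and 554 in knockout samples, with means of 152 ± 93.6 and 474 ± 200 (SD, n = 3 each). The log2 difference was 1.62 ± 0.47 (SE, limma unadjusted p = 0.00641, adjusted p = 0.371). As for Dmp1, heterozygous replicate 5 and knockout replicate 2 were nearly equal, a ratio of 1.01. A second Phex probe set, with no value above 18.3, did not pass the filter.

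Of the regulators, Pth1r stood at 166, 229 and 231 in heterozygous and 262, 360 and 323 in knockout samples. Its groups did not overlap, and its spread within a genotype was smaller than that of the matrix genes (log2 difference 0.56 ± 0.22 SE, limma unadjusted p = 0.0305, adjusted p = 0.387). Its unadjusted limma p was 0.118 without heterozygous replicate 1, 0.0589 without knockout replicate 4 and 0.0677 without knockout replicate 6. With quantile normalisation the limma p was 0.0648 and with array weights 0.0717. Pth1r was the gene lost in each of these settings, where 3 of the 8 were higher at a p under 0.05. Of all genes, 2.4% to 6.42% were higher at that threshold in these settings. Sp7, the factor required for osteoblasts to mature, gave 59.6, 62.3 and 92.4 against 58.2, 212 and 156. Knockout replicate 2 was thus the lowest of all 6 samples, and the other knockout samples the highest (0.73 ± 0.39 SE, limma adjusted p = 0.508). Dlx5, a homeobox factor upstream of Sp7, was dim, at 28.6, 45.8 and 64.3 against 51.1, 84.8 and 82.2, with overlapping groups (0.53 ± 0.31 SE, limma adjusted p = 0.536). Its heterozygous mean of 46.22 was just under the filter of 46.34, so it passed only through its knockout mean of 72.7.

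The 2 enzymes of mineral formation stood on opposite sides of 0. Smpd3, a neutral sphingomyelinase needed for normal bone mineral, gave 88.7, 144 and 279 in heterozygous and 165, 454 and 389 in knockout samples, with knockout replicate 2 inside the heterozygous range (log2 difference 0.93 ± 0.43 SE, limma unadjusted p = 0.0582, adjusted p = 0.443). Its other probe sets, with no value above 44.3, did not pass the filter. Alpl, the tissue-nonspecific alkaline phosphatase that breaks down the mineral inhibitor pyrophosphate, gave 869, 755 and 743 against 727, 605 and 874. Its means of 789 ± 69.7 and 736 ± 135 (SD, n = 3 each) differed by -0.11 ± 0.18 on the log2 scale (SE, limma adjusted p = 0.850). Alpl is also made outside bone, among others by endothelial cells, and its direction turned without knockout replicate 4 (0.02).

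**Figure D2:**
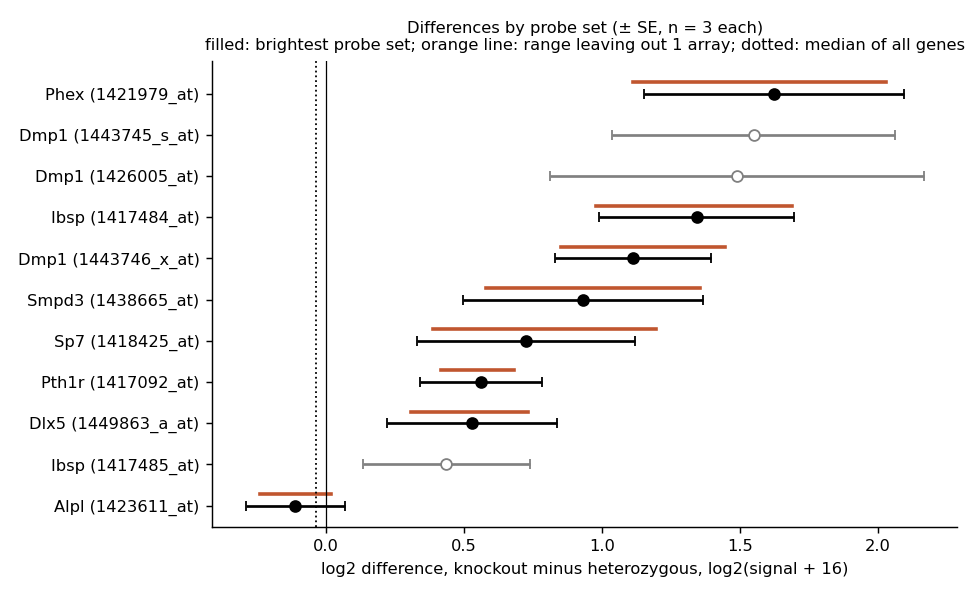
Log2 difference, knockout minus heterozygous, of the 11 tested probe sets with their standard errors (n = 3 each); filled points are the brightest probe set of a gene, and orange lines span the values with 1 array left out. Of the 11, 10 lie above 0, the highest is Phex (1.62) and the only one below is Alpl (-0.11).

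Single samples set much of the size of these differences. Leaving out 1 array moved the log2 difference of Dmp1 between 0.85 and 1.45, of Ibsp between 0.98 and 1.69, of Phex between 1.11 and 2.03 and of Sp7 between 0.39 and 1.20, with no change of sign. Without knockout replicate 2, 7 of the 8 genes had groups that did not overlap (11% of all genes did so with the knockout above), and the median of the 8 was 1.27. When each array was centred on its median, the groups of Dmp1 and Phex overlapped and only those of Ibsp and Pth1r did not. In that setting 4.79% of all genes had the knockout samples above.

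Most mineralisation genes put the samples in a similar order, within each genotype as well as between them. In 7 of 8, heterozygous replicate 1 was the lowest of the 3 heterozygous samples and replicate 5 the highest, an order that 16.6% of all genes had, and Alpl was the exception. Knockout replicate 2 was the lowest knockout sample in 7 of 8, as in 26.3% of all genes. These counts describe an order noticed in the values and carry no test. The median deviation of the 8 from their heterozygous means was -0.48, -0.01 and 0.44 in heterozygous replicates 1, 3 and 5 and 0.24, 1.34 and 1.12 in knockout replicates 2, 4 and 6, so on this measure knockout replicate 2 lay below heterozygous replicate 5. By replicate number, these medians were lower in heterozygous 1, knockout 2 and heterozygous 3 than in knockout 4, heterozygous 5 and knockout 6. That order runs partly with genotype, and the labels do not say what the numbers follow. Its part in the differences was not tested. The median SD among heterozygous samples was 0.51 on the log2 scale for the 8 genes and 0.15 for all genes, and among knockout samples 0.50 and 0.23.

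**Figure D3:**
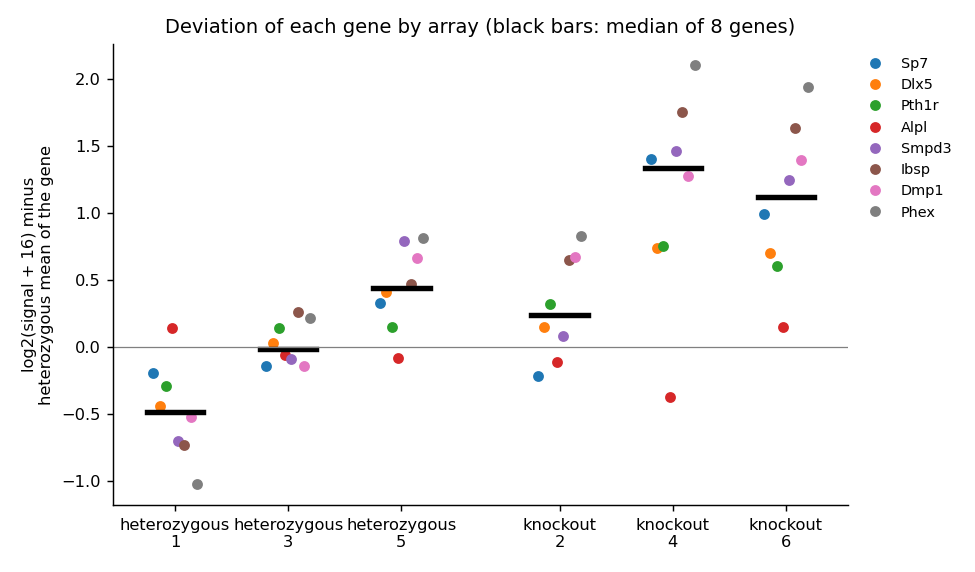
Deviation of each of the 8 genes from its own heterozygous mean, in log2(signal + 16), by array; black bars are the median of the 8. The bar of knockout replicate 2 (0.24) lies below that of heterozygous replicate 5 (0.44), and knockout replicates 4 and 6 stand above all others (1.34 and 1.12).

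Signs of RNA quality and of tissue content also differed between these samples. The ratio of the 3′ to the 5′ control probe set of actin, which tends to be higher where RNA is less intact, was 2.42, 3.06 and 3.14 in heterozygous replicates 1, 3 and 5 and 3.15, 4.48 and 2.63 in knockout replicates 2, 4 and 6. It was thus lowest where the members were lowest (heterozygous replicate 1) and highest in knockout replicate 4, while knockout replicate 6 had a low ratio and high members. The same ratio of Gapdh was 1.35, 1.41 and 1.40 against 1.52, 1.69 and 1.29. The summed signal of 11 endothelial markers ranged from 8055 to 12583 in heterozygous and from 4078 to 11414 in knockout samples, and was lowest in knockout replicate 4. Without knockout replicate 4 the members' median was 0.57, and Dmp1, Phex and Ibsp stayed higher at an unadjusted p under 0.05. In that setting 2.91% of all genes were higher at this threshold. The part of RNA quality and tissue content in the members' differences was not tested.

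Osteoclasts are the bone-resorbing cells. Of 11 osteoclast markers on the array, 5 were tested (4 higher and 1 lower in knockout samples), with a summed signal of 914 to 992 in heterozygous and 1199 to 2249 in knockout samples, and a median log2 difference of 0.82. None passed the limma adjusted threshold, and 3 were higher at an unadjusted p under 0.05 (Mmp9, Ctsk and Acp5), while Nfatc1 differed by -0.05 and Itgb3 by 0.09. Mmp9, a matrix metalloproteinase, gave 18.4, 20.4 and 59.9 against 89.9, 147 and 511. Its heterozygous mean of 32.9 was under the filter, so Mmp9 passed only through its knockout mean of 249. The counts and the median of the osteoclast markers include Mmp9. Ctsk, the collagen-degrading cathepsin K, gave 391, 290 and 316 against 685, 406 and 752. Ctsk was lowest among the knockout samples in replicate 4, where Ibsp and Phex were highest, whereas Mmp9 ranked the samples as Dmp1 did within each genotype. The other 6 osteoclast markers (Ocstamp, Dcstamp, Atp6v0d2, Calcr, Oscar and Tnfrsf11a) were below the filter.

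Of 16 cartilage markers on the array, 12 were tested, 10 of them higher and 4 at an unadjusted p under 0.05, with a median log2 difference of 0.32. None passed the adjusted threshold in limma. Their summed signal was 36121 to 44933 in heterozygous and 48325 to 53460 in knockout samples. The cartilage collagen gene Col2a1 differed by 0.39 (5145, 4776 and 5419 against 6901, 7312 and 5920) and its partner Col9a2 by 0.56. The lower ones were Comp (-0.06) and Matn1 (-0.12), and Matn3, Hapln1, Col10a1 and Snorc were below the filter. Markers of spiral ligament fibrocytes, which lie between the stria and the bone, were evenly split, 4 higher and 4 lower of 8 tested, with sums of 31390 to 39247 and 38070 to 39542. Among them Otor (0.26) and Car3 (0.21) had the smallest p, while Tgfbi (-0.41) and Coch (-0.31) were among the lower ones. The median was -0.05 for 8 marginal cell markers (2 higher, 6 lower), with Bsnd at -0.47 and Slc12a2 at 0.18 (other probe sets -0.02 and 0.11). It was -0.09 for 10 intermediate cell markers (2 higher, 8 lower), with Kcnj13 at -0.66, Kcnj10 at -0.30, and the higher ones, Dct and Gsta4, at 0.10 and 0.12. For 7 basal cell markers (4 higher, 3 lower) it was 0.01, with Tjp1 at 0.16, Gjb2 at 0.19 and Sox8 at -0.16. For 13 macrophage markers (10 higher, 3 lower) it was 0.10, with Cd68 at 0.48, Cd14 at 0.51 and Aif1 at -0.33. For 11 endothelial markers (1 higher, 10 lower) it was -0.29, with Eng at -0.41, Tek at -0.75 and Kdr at 0.32. The sums were 41742 to 43701 in heterozygous and 41264 to 47436 in knockout samples for marginal cells, 49688 to 55547 and 51429 to 54099 for intermediate cells, 44463 to 47046 and 46139 to 49896 for basal cells, and 9026 to 12106 and 9653 to 13400 for macrophages. The part of these cells in the members' differences was not tested.

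The wider bone programme was read from 6 further lists, chosen by function. Of their 89 genes 58 were tested, 34 of them higher and 24 lower, with 0 past the limma adjusted threshold and, at an unadjusted p under 0.05, 8 higher and 1 lower. Matrix proteins accounted for 6 of those 8. In that list 10 of 11 tested genes lay above 0, and the median was 0.39 on the log2 scale. Tnmd, a tendon and ligament membrane protein, gave 23.8, 65.8 and 240 against 250, 397 and 702 (log2 difference 2.19 ± 0.60 SE). Omd, a proteoglycan of mineralised matrix, gave 60.3, 131 and 205 against 387, 245 and 373 (1.35 ± 0.37 SE). Both had groups that did not overlap, and each had a limma adjusted p of 0.371. Col1a1, the main collagen of bone, gave 1199, 1210 and 2911 against 2441, 4486 and 4271 (1.15 ± 0.34 SE), and knockout replicate 2 again fell below heterozygous replicate 5.

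Among osteoblast membrane and secreted genes, Panx3, a channel protein of osteoblasts and hypertrophic chondrocytes, had the smallest p. Its signals were 44.1, 107 and 176 in heterozygous and 280, 578 and 430 in knockout samples, a log2 difference of 1.93 ± 0.41 (SE, limma unadjusted p = 0.000921, adjusted p = 0.371), and its groups were further apart than those of Dmp1 or Phex. The probe set of Panx3 ends in _s_at. The remainder of that list went both ways, 5 higher and 6 lower of 11 with Panx3 included, with Ptn, a heparin-binding growth factor, at 0.26 and Sfrp2, a secreted Wnt modulator, at -0.86. Other tested probe sets of Ptn gave 1.37 and 0.09.

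Of 7 tested genes that control phosphate and pyrophosphate, 1 was higher and 6 were lower, with a median of -0.16. Over all genes, 43.1% had a positive difference. Only Fam20c reached an unadjusted limma p under 0.05. Fam20c, the kinase that phosphorylates Ibsp and Dmp1 among other secreted proteins, had 4673, 4880 and 5020 in heterozygous and 3460, 3972 and 4429 in knockout samples (log2 difference -0.30 ± 0.11 SE, limma adjusted p = 0.373). The groups did not overlap on this probe set, which ends in _x_at, but 2 others gave -0.01 and -0.08. Ank, the pyrophosphate exporter, stood at -0.21 and Galnt3, which glycosylates the phosphate hormone Fgf23, at -0.13. Another tested probe set of Galnt3 gave 0.03.

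The lists of transcription factors, osteocyte genes and growth factor signalling had medians near 0. Osteoblast transcription factors had a median of 0.04 over 7 tested genes, with Atf4 at -0.24, Zfhx4 at 0.22 and Prrx1 at -0.38. Another tested probe set gave -0.12 for Zfhx4 and -0.08 for Atf4, and others of Prrx1 gave -0.36, -0.14 and 0.08. Osteocyte genes had a median of 0.10 over 7, with Fbln7 at 0.34, Ackr3 at 0.10 and Irx5 at -0.34. BMP and Wnt signalling genes had a median of 0.00384 over 15, with Bmp2 at -0.68, Bmp4 at -0.57, Lrp5 at -0.48 and Ctnnb1 at 0.18. No gene of these 3 lists reached an unadjusted p under 0.05. The osteocyte genes Sost, Mepe and Fgf23 and the osteoblast genes Ifitm5 and Dlx3 were below the filter, with no signal above 76.1.

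**Figure D4:**
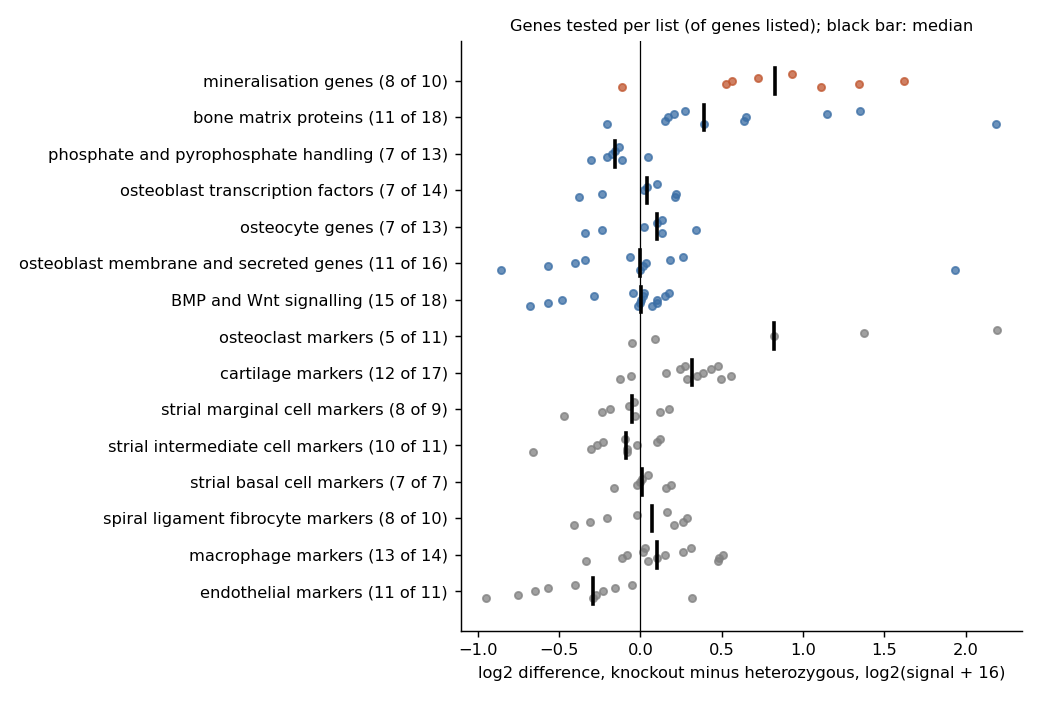
Log2 difference, knockout minus heterozygous, of each tested gene in the mineralisation list (orange), 6 further bone lists (blue) and the cell type marker lists (grey); the numbers give genes tested of genes listed, and black bars are medians. The mineralisation (0.83) and osteoclast (0.82) lists have the highest medians, bone matrix proteins (0.39) and cartilage (0.32) follow, and phosphate handling (-0.16) and endothelial markers (-0.29) lie below 0.

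To see which other genes had the pattern of the mineralisation genes, log2 values were centred on each gene's own mean over the 6 arrays and the root mean square distance to Dmp1 and to Ibsp was taken. For Dmp1, among 2080 genes that varied enough to compare, the nearest were Col22a1 (0.13), a collagen of tissue junctions, Col1a1 (0.16), Lcat (0.18), a cholesterol-esterifying enzyme of lipoproteins, Ptchd4 (0.22) and Bcan (0.23). For Ibsp, among 1253 genes, Col22a1 (0.16) and Lcat (0.19) came first again, followed by Sfrp4 (0.27), a secreted Wnt modulator, Cyp21a1 (0.29) and Bcan (0.31). Col22a1 gave 34.4, 61.5 and 92.1 in heterozygous and 101, 187 and 203 in knockout samples, and Lcat 249, 399 and 526 against 520, 1046 and 900. Cyp21a1, at 7.36, 40.3 and 48.4 against 59.7, 80.8 and 83.8, passed the filter only through the knockout samples. The distance between Dmp1 and Ibsp was itself 0.27, and from Dmp1 to Smpd3 it was 0.26, to Dlx5 0.33, to Sp7 0.40, to Pth1r 0.40, to Phex 0.41 and to Alpl 0.78. The profiles include the difference between genotypes. Col22a1 rests on a probe set ending in _s_at and Bcan on one ending in _x_at, while the other probe set of Bcan differed by -0.11.

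Dmp1 and Ibsp are neighbouring protein-coding genes on mouse chromosome 5, in a cluster of phosphoprotein genes that runs Dspp, Dmp1, Ibsp, Mepe and Spp1 in the RefSeq annotation of GRCm38.p6. The other measured genes of the cluster were dim. Dspp, a dentin gene, had no signal above 5.46, and Mepe gave 2.04, 23.8 and 22.2 in heterozygous and 27.7, 20.2 and 39.7 in knockout samples, both below the filter.

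The start regions of the 3 genes with the highest log2 differences are shown because these genes put the samples in nearly the same order. RefSeq (GRCm38.p6) gives 9 windows of 300 bases, 250 before and 50 after a transcript start, for 5 of the 8 measured genes, 2 of them for Dmp1. Capitals mark the letters TGTGGT, the core bound by Runx factors, the TATA motif TATAAA, the motif CCAAT bound by nuclear factor Y and the homeodomain core TAATTA, searched on both strands with no overlap between the motifs found. On the opposite strand the Runx core reads ACCACA, the TATA motif reads TTTATA and the CCAAT motif reads ATTGG, while the homeodomain core reads the same on both. The windows are read 5′ to 3′ on the gene's strand.
Dmp1, first window, chr5:104197325-104197624, plus strand: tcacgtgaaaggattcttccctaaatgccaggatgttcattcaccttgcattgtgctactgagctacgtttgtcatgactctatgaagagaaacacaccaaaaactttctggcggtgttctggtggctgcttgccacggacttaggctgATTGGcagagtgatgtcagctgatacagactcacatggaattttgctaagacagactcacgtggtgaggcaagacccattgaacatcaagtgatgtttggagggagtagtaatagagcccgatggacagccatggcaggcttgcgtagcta
Dmp1, second window, chr5:104202367-104202666, plus strand: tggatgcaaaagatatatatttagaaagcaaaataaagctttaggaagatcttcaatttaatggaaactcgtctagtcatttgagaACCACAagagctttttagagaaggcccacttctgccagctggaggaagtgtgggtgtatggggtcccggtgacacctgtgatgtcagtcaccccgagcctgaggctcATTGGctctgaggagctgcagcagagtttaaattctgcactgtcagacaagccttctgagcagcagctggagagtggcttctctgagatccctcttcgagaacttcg
Ibsp, chr5:104299037-104299336, plus strand: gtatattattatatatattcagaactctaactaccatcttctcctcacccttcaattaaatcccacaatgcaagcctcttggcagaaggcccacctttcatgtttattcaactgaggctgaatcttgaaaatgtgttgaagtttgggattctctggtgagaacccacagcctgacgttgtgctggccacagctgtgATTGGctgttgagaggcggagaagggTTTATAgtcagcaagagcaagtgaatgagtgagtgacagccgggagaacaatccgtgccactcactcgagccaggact
Phex, chrX:157415237-157415536, minus strand: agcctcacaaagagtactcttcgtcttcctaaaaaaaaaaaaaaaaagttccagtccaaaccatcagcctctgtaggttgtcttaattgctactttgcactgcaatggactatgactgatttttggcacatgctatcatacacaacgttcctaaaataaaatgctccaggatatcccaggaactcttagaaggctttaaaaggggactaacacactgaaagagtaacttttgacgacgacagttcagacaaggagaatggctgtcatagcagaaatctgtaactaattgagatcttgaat

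The second Dmp1 window holds ACCACA, and both Dmp1 windows and the Ibsp window hold ATTGG. The CCAAT motif starts at base 54 before the Ibsp transcript start and at base 57 before the second Dmp1 start. Ibsp has TTTATA starting 28 bases before its start, a TATA motif in the reverse direction. None of the motifs was found in the Phex window. Over all 32851 windows of this length, 16.8% held the Runx core, 13.6% the TATA motif, 37.4% the CCAAT motif and 5.29% the homeodomain core, and among the 9 windows of the measured members the counts were 1, 2, 4 and 1. The CCAAT motif was added after the sequences were seen, and a match is a description of these letters only. The 4 windows shown are 47.7%, 47.3%, 46.3% and 38.7% G or C, below the median of 52.7% over all windows.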

How the data were processed

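Per the labels' protocols, a Qiagen kit was used to extract the RNA and NuGEN's Ovation protocol to label it. It was hybridised to Affymetrix Mouse 430 2.0 arrays. The authors deposited a linear signal intensity for each probe set, from GCOS per the submitters' processing notes. The background and summary methods are not given in the sources used here. Trimming 2% at either end left each array a mean of about 498 over probe sets that are not controls, so arrays were used as deposited. The medians of these probe sets were less even. They were 82.3, 76.7 and 81.1 in heterozygous replicates 1, 3 and 5 and 89.9, 104.8 and 88.8 in knockout replicates 2, 4 and 6. With quantile normalisation the log2 difference was 0.56 for Sp7 and 0.34 for Dlx5, and the members' median was 0.70.

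Of 45101 probe sets, 64 controls were left out of the tests, as were those with a mean signal under the 40th percentile, 46.3, which left 27022. Each was fitted on log2(signal + 16) in R 4.3.3 by limma 3.58.1 (lmFit and eBayes, trended variance), with two-sided p-values adjusted by Benjamini-Hochberg over all of them and a threshold of 0.05. The platform annotation named the probe sets, and all 14 member probe sets matched a RefSeq gene by identifier. The brightest tested probe set stood for a gene, for 12421 genes. A run on simulated data with planted changes checked only that their mean size was returned. It does not show how many real changes the test would call. Members, lists and alternatives were chosen with earlier results of these data known. Named besides the members were Slc26a4, the 3 genes of each pathway list and the 2 of each marker list with the smallest p, and the 5 genes whose profile over the arrays was nearest to that of Dmp1 and of Ibsp. Other genes named were chosen after their values were seen. Alternatives changed the offset, floor, normalisation, filter, variance model, probe set summary and arrays used. Figures were drawn with matplotlib 3.10.9.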

Additional observations from a re-analysis of the deposited data

How the results depend on the processing

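No member passed the limma adjusted threshold in any of 19 alternatives, with an adjusted p from 0.168 to 0.995. The median log2 difference of the tested members stayed positive, from 0.37 with array weights to 1.27 without knockout replicate 2, and from 0.57 to 1.27 when 1 array was left out. The members higher at an unadjusted p under 0.05 numbered 3 to 6 over all alternatives, where 1.51% to 6.42% of all genes were. Members whose groups did not overlap numbered 2 with median centring and 2 when the probe sets of a gene were averaged. The knockout samples lay above in 4.79% and 7.87% of all genes in these settings. With 1 array left out 4 to 7 members did not overlap, where 8.44% to 14.2% of all genes had the knockout above and 9.94% to 17% below. Alpl had the knockout samples below without knockout replicate 6, and every other member so counted had them above. The log2 difference of Alpl turned in sign without knockout replicate 4, to 0.019, and was -0.24 to 0.019 when 1 array was left out. The number of probe sets called over the whole array was 1, against 4 with a floor of 32, 3 with quantile normalisation, 3 with cyclic loess, 23 with array weights and 0 to 13 when 1 array was left out (limma gave 0 without heterozygous replicate 5, where 1715 had an unadjusted p under 0.05, and without either of knockout replicates 2 and 6, where 3286 and 5259 did). It was 0 with no filter (limma, 4301 at an unadjusted p under 0.05) and 0 with a 60th percentile filter (1588). Fitting 1 probe set per gene, chosen after seeing the data, gave 11. Sp7 and Dlx5 were too dim to pass the 60th percentile filter. No paired analysis was run, because the labels name no pairs and the groups share no replicate number. Whether samples were paired by litter or handling is not given.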
